A study of Mus musculus with 6 samples.

Results

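The genes described are 10 of the 24421 gene symbols in a table of read counts from 6 mouse neurofibromas: the bone morphogenetic protein (BMP) ligands Bmp2, Bmp4, Bmp6 and Bmp7, the BMP Smads Smad1, Smad5, Smad9 and Smad6, and the target genes Id1 and Id3. They were taken by symbol. The set was chosen by pathway and by the counts themselves, since Smad9 was known to be among the clearest rises in the same tumours. The levels of the 10 genes are therefore a description with no test. Neurofibromas are benign tumours of peripheral nerve. All 6 arose in C57BL/6J mice with the Nf1fl/fl; DhhCre genotype, in which Cre driven by the Dhh promoter of the Schwann cell lineage deletes the floxed Nf1 gene. In 3 of them, MiRNC149, MiRNC640 and MiRNC670, miR-155 was knocked out as well (group miR155KO_Nf1KO). The controls Nf803, Nf809 and Nf827 carried the Nf1 deletion without it (group Nf1KO). The mice were given no drug, and their ages are not stated in the labels. The comparison was made by the study to look for possible targets of miR-155, a microRNA best known from immune cells. Whether 2 tumours of a group share an animal is not stated, and p-values measure only the spread between these 6 samples.

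BMP ligands are secreted dimers that bring together type I and type II receptors on the cell surface. The type I receptor then phosphorylates Smad1, Smad5 or Smad9, which join Smad4, enter the nucleus and switch on targets such as the Id genes. Smad6 and Smad7 are inhibitory Smads that are themselves induced and damp the signal. In peripheral nerve, BMPs are known as regulators of Schwann cell precursors, of neuron survival and of vessels. Phosphorylation is not measured by read counts, so the values below are transcript levels of the parts of the pathway and not its activity.

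A microRNA pairs through its seed, bases 2 to 8, with sites that lie mostly in 3′ untranslated regions (UTRs). The sites in the set are shown because the study looked for targets of miR-155. The first sequence shown is mature miR-155-5p from RefSeq (GRCm38.p6, chr16:84714143-84714165, plus strand), with the seed in capitals. The others are every match in the 10 genes to the seed, in capitals within at most 28 bases of the transcript, written 5′ to 3′ with T for U.
miR-155-5p: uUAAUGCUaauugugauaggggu
Smad9: acatcttcgaatatttgGCATTAAtgtg
Smad5, first site: aactctaattttcctgtGCATTAAtctt
Smad5, second site: tcccctacaatgttatgAGCATTAttga
Smad6: cttgataataaagtgtttGCATTAta
The matches searched on the transcript strand were AGCATTAA (an 8mer), AGCATTA (7mer-m8), GCATTAA (7mer-A1) and GCATTA (6mer), each letter run counted once under the longest name that holds it. The Smad9 site is a 7mer-A1 at chr3:54800935-54800941 (plus strand), in exon 6 of 6, at bases 3434 to 3440 of a 3′ UTR of 3756 bases. In Smad5 the 7mer-A1 lies at chr13:56738237-56738243 and the 7mer-m8 at chr13:56738486-56738492, both on the plus strand in exon 7 of 7. The Smad6 match, at chr9:63953078-63953083 on the minus strand in exon 4 of 4, is a 6mer, the weakest of the classes searched. Bmp2, Bmp4, Bmp6, Bmp7, Smad1, Id1 and Id3 had none of these letters in the longest 3′ UTR of a coding transcript (GENCODE M21, GRCm38).

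**Figure D1:**
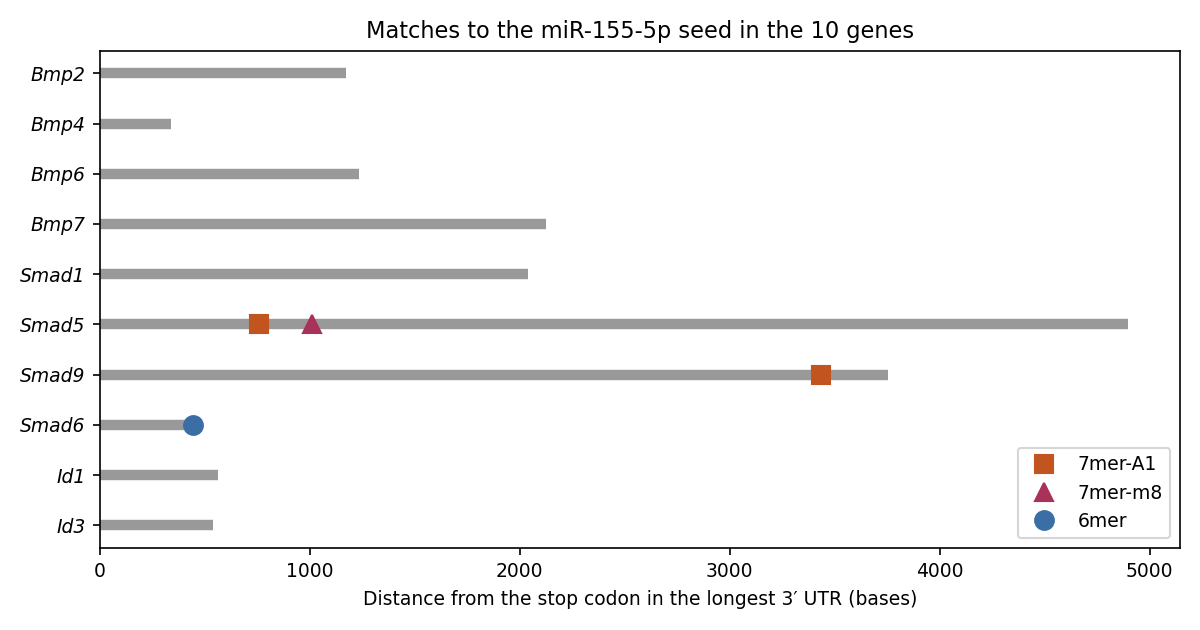
Matches to the miR-155-5p seed along the 3′ UTR of the 10 genes. The x axis is the distance in bases from the stop codon, grey bars are the longest 3′ UTR of each gene, and symbols mark the class of match, with 1 match in Smad9, 2 in Smad5 and 1 in Smad6.

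A 7mer or longer was present in 2 of the 10 genes (20%), Smad5 and Smad9, beside 14.2% of the 14020 tested genes with a 3′ UTR. The UTRs of Smad5 and Smad9 are long, and long UTRs hold more matches. Among tested genes whose UTR was 0.8 to 1.25 times as long as that of Smad9, 32.1% of 1528 held a 7mer or longer, and for Smad5 the share was 39.1% of 912. The 1989 tested genes with a 7mer or longer had a median log2 fold change of 0.05, and the 10946 with no 6mer had -0.01. A match is a run of letters and was not tested as a site of action.

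Levels are given as CPM, reads of a gene per 1000000 counted reads, after scaling by the trimmed mean of M-values (TMM). Column totals ran from 13061129 to 16333181 reads, 15604 genes passed the filter on low counts and all 10 genes of the set were among them. Mir155hg, the host transcript of miR-155, had 5, 3 and 1 reads in the 3 tumours labelled as lacking miR-155 and 57, 66 and 71 in the others, with no overlap and in the direction the labels state. Over all genes tested, 9.96% passed a Benjamini-Hochberg adjusted p under 0.05 in edgeR's quasi-likelihood test, 5.22% higher and 4.74% lower in miR155KO_Nf1KO. For 32.6% the CPM ranges of the groups did not overlap, and 4163 of the 15604 had an unadjusted p under 0.05 in edgeR's test. Tumours Nf809 and MiRNC670 stood apart by skeletal muscle transcripts, with summed muscle markers of 1589 and 1809.6 CPM against 5.56 to 286 CPM in the other tumours, and where the sign of Bmp4, Id1, Id3 or Bmpr1b turns without this pair, that value is given. Group ranges of summed markers were apart for sensory neurons, myelinating Schwann cells, the Schwann cell lineage, macrophages, fibroblasts and perineurium, and their values stand beside the results. By Xist and Y-linked reads MiRNC149, Nf803 and Nf827 came from females and the other tumours from males, so sex was not split evenly. In bulk tumour RNA, fewer cells of a type and less RNA per cell cannot be told apart.

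Of the 4 ligands in the set, Bmp7 was the most abundant per length of transcript in every tumour, and no ligand had group ranges that were apart. Bmp7, a ligand needed for kidney and eye development, was at 89.6, 89.7 and 129.7 CPM in MiRNC149, MiRNC640 and MiRNC670 and at 134, 129 and 88.3 CPM in Nf803, Nf809 and Nf827. Each group held 1 tumour at the level of the other group, MiRNC670 on the high side and Nf827 on the low side. The means were 103 ± 23.1 and 117 ± 25.1 CPM (SD, n = 3), a log2 fold change of -0.19 (SE 0.22).

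Bmp4, a ligand with broad roles in mesoderm and neural crest, was at 12.5, 15.3 and 11.1 CPM in miR155KO_Nf1KO and at 8.93, 16.4 and 13.9 CPM in Nf1KO. The 3 tumours without miR-155 lay inside the range of the other 3, and the means were 12.97 ± 2.16 and 13.1 ± 3.82 CPM. Its log2 fold change was -0.01 (SE 0.27) and took either sign over the alternative settings, from -0.25 to 0.26, the highest without MiRNC670 and Nf809. Exons of Bmp4 overlap those of Gm15217 on the other strand, and those of Bmp6 overlap Txndc5. The strand setting of the counting is not given in the sources used here, so reads of such pairs cannot be told apart.

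Bmp6, known as the liver ligand that sets hepcidin and iron levels, was at 5.92, 7.23 and 9.43 CPM without miR-155 and at 4.86, 7.85 and 4.89 CPM with it. Nf809 lay above 2 of the 3 tumours of the other group, so the ranges overlapped. The difference on the log2 scale was 0.36 (SE 0.32), and it was positive in all 15 alternative settings, between 0.14 and 0.63.

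Bmp2, a close relative of Bmp4 that drives bone and vessel development, showed the widest spread of the ligands relative to its level. It was at 0.708, 3.17 and 0.950 CPM in miR155KO_Nf1KO and at 5.73, 1.30 and 5.69 CPM in Nf1KO, from 255 reads in all. Nf803 and Nf827 were the highest, and MiRNC149 and MiRNC670 the lowest, but MiRNC640 lay above Nf809 and the ranges overlapped. With an SE of 0.76, its log2 fold change was -1.39, and it ranged from -2.35 to -1.01 over the 15 alternatives, the largest decrease without MiRNC640 and the smallest without MiRNC149.

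**Figure D2:**
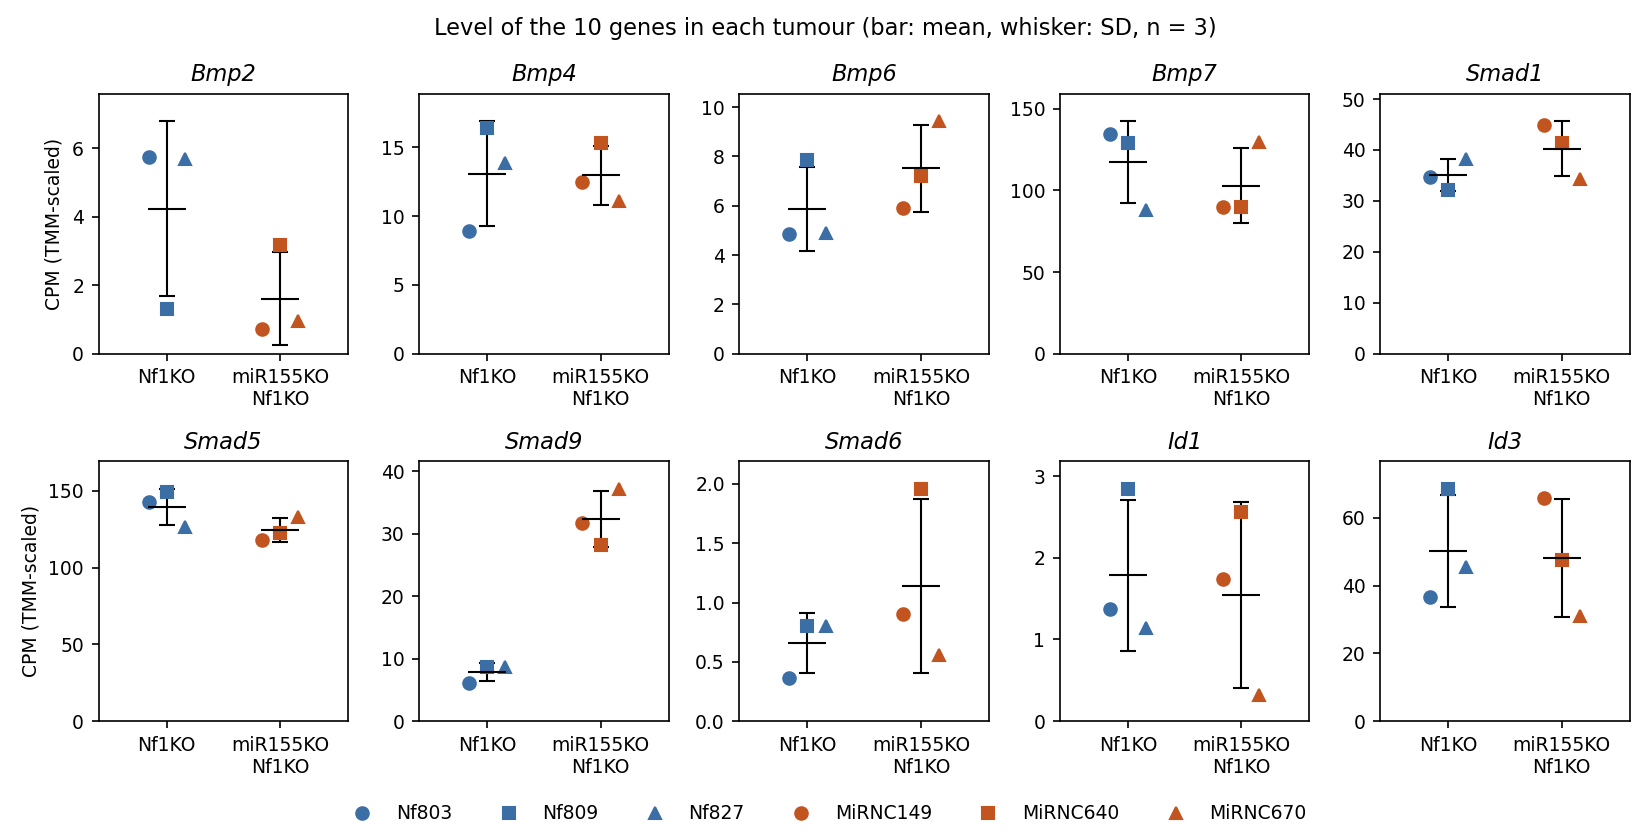
CPM of each of the 10 genes (y axis, linear, own scale per panel) in the 3 Nf1KO and the 3 miR155KO_Nf1KO tumours, with a symbol per tumour, a bar at the mean and whiskers of 1 SD. Smad9 is the panel in which the groups are apart, at 6.17 to 8.65 against 28.2 to 37.1 CPM.

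Smad9 was the receptor-regulated Smad whose level lay apart in the groups. It was at 31.7, 28.2 and 37.1 CPM in MiRNC149, MiRNC640 and MiRNC670 (493, 417 and 469 reads) and at 6.17, 8.65 and 8.64 CPM in Nf803, Nf809 and Nf827 (85, 140 and 129 reads). The lowest tumour without miR-155 was above the highest tumour with it, and the spread inside each group was small beside the gap. The means were 32.4 ± 4.52 and 7.82 ± 1.43 CPM (SD, n = 3), a ratio of 4.14 and a log2 fold change of 2.05 (SE 0.21). Its gene lies at chr3:54755582-54801257 (GRCm38, plus strand, ENSMUSG00000027796.2), and no other GENCODE M21 gene overlaps it.

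Smad9 was the 1 gene of the 10 that passed the adjusted threshold in the fit across all genes and the 1 gene whose ranges were apart. These counts stand beside the 9.96% and 32.6% of all genes tested, and because this contrast chose the set nothing is read from them. Over 15 alternative settings the log2 fold change of Smad9 stayed between 1.87 and 2.14. It passed the threshold in 12 of them, and not without MiRNC670, Nf803 or Nf827. Without each of these, edgeR called 0 genes of the whole table, and 3240, 3335 and 3265 had an unadjusted p under 0.05. The alternatives reuse the tumours that chose Smad9, so nothing is read from this count of passes either.

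Smad1 and Smad5, the widely expressed partners of Smad9, differed by little. Smad5 was at 118, 123 and 133 CPM in miR155KO_Nf1KO and at 143, 149.2 and 127 CPM in Nf1KO, where Nf827 lay below MiRNC670 and the ranges overlapped. Its log2 fold change was -0.17 (SE 0.12), between -0.24 and -0.11 over the alternatives. An exon of Smad5 overlaps that of a small RNA gene on the same strand, Gm27301. Smad1 was at 44.9, 41.4 and 34.4 CPM without miR-155 and at 34.8, 32.2 and 38.3 CPM with it, a log2 fold change of 0.20 (SE 0.16), between 0.12 and 0.27 over the alternatives. The tumour of the highest Smad9, MiRNC670, had the lowest Smad1 of its group.

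Per length of transcript, the share of Smad9 in the 3 receptor-regulated Smads was also higher without miR-155. It made up 20.4%, 18.5% and 22.8% of their summed CPM per kb of exon in miR155KO_Nf1KO and 4.43%, 6.00% and 6.49% in Nf1KO. The share of Smad5 was 57.4 ± 2.23% against 72.6 ± 3.30%, and that of Smad1 was 22.1 ± 3.49% against 21.7 ± 2.78%. Smad5 was thus the main transcript of the 3 in all 6 tumours. Their summed level was 29.2 ± 0.977 CPM per kb without miR-155 and 25.9 ± 1.04 CPM per kb with it.

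**Figure D3:**
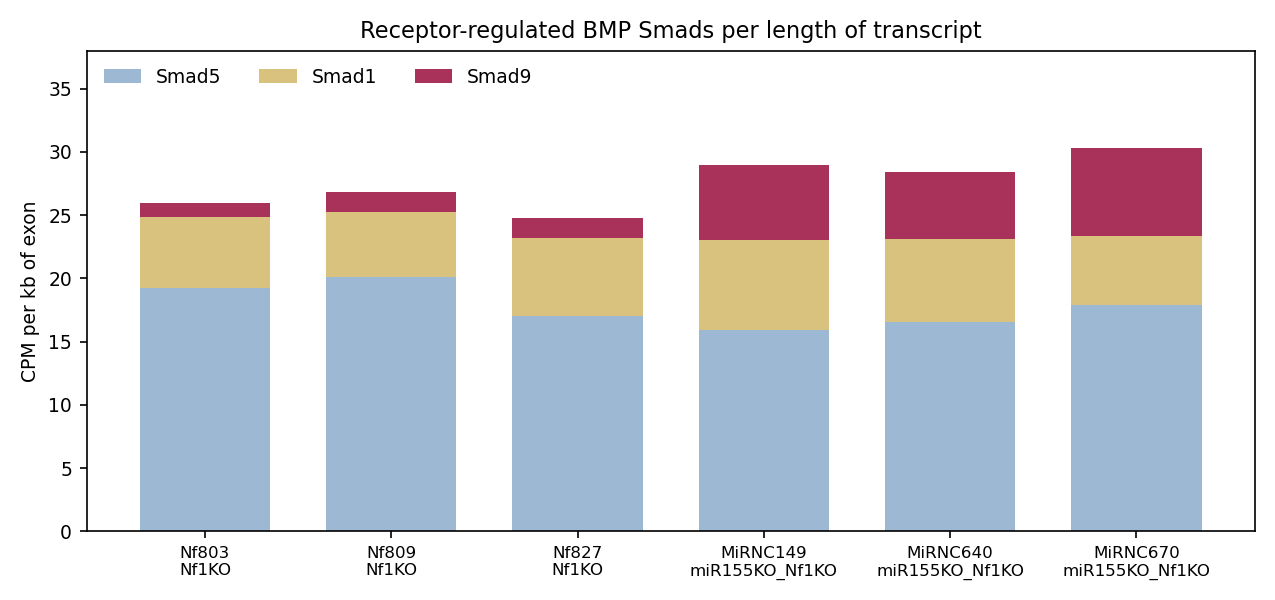
Stacked CPM per kb of exon (y axis, linear from 0) of Smad5, Smad1 and Smad9 in each of the 6 tumours. The Smad9 segment makes up 4.43% to 6.49% of the stack in Nf1KO and 18.5% to 22.8% in miR155KO_Nf1KO, and Smad5 is the largest segment in every tumour.

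Marker sums of sensory neurons and of myelinating Schwann cells were higher in the same tumours as Smad9, as was that of the Schwann cell lineage, given below. The summed level of 12 sensory neuron markers was 5549 to 8888 CPM in miR155KO_Nf1KO and 1335 to 2727 CPM in Nf1KO, with 7 of 12 called higher by edgeR and none at 0. Snap25, a synaptic vesicle fusion protein of neurons, was at 1966, 1787 and 2660 CPM against 367, 676 and 395 CPM. For 10 markers of myelinating Schwann cells the sums were 10334 to 21852 CPM and 5524 to 6578 CPM, with 8 of 10 called higher and none at 0. In the neuron and myelin sums and in Smad9 the groups were apart, while the order inside the groups differed. MiRNC670 was highest in Smad9 and in the neuron sum, and MiRNC640 in the myelin sum. The part of these cells in the level of Smad9 was not tested.

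Values of the Schwann cell lineage, endothelial, macrophage and adipocyte lists follow. The 8 markers of the whole Schwann cell lineage summed to 2057 to 2411 CPM without miR-155 and 1497 to 1701 CPM with it, 2 of 8 called higher, with Sox10 at 333, 287 and 277 CPM against 249, 215 and 263 CPM. Endothelial markers, of a cell type known for BMP signalling, summed to 229 to 421 CPM and 241 to 337 CPM, with 0 of 12 called by edgeR and 2 at an unadjusted p under 0.05. The ranges of the sums overlapped, while 9 of the 12 were higher on average, and the list's median log2 fold change was 0.46. Pecam1, first in the list and 1 of the 3 negative ones, was at 22.9, 48.9 and 25.6 CPM against 35.1, 45.7 and 45.5 CPM, and Cldn5 and Robo4 had ranges apart and higher without miR-155 (log2 fold changes of 1.48 and 0.86). Macrophage markers were lower without miR-155, at 269 to 524 CPM against 995 to 2062 CPM, 6 of 8 called lower, with Csf1r at 104, 51.9 and 66.2 CPM against 215, 141 and 355 CPM. Adipocyte markers had a ratio of mean sums of 4.49 without miR-155 to with it, larger than that of the neuron list (3.81), but ranged from 80.7 to 1937 CPM and from 29.1 to 296 CPM, which overlapped, and 0 of 5 were called. None of the markers in these 4 lists was at 0 in all tumours. The part of these cells in the level of Smad9 was not tested either.

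**Figure D4:**
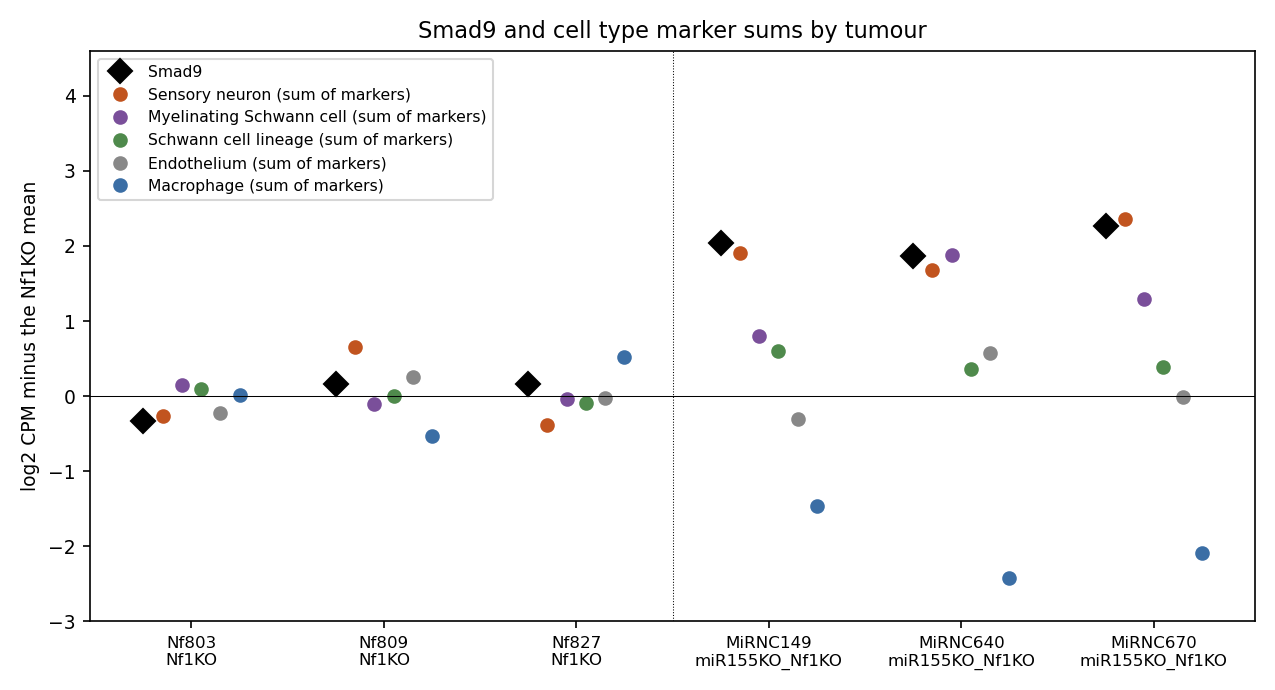
Level of Smad9 and of the summed markers of 5 cell types in each tumour, as log2 CPM minus the mean of the Nf1KO tumours (y axis). Smad9 and the sensory neuron, myelinating Schwann cell and Schwann cell lineage sums lie above 0 in all 3 miR155KO_Nf1KO tumours. The macrophage sum lies below 0 in them, and the endothelial sum on both sides.

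The genes with the profile nearest to Smad9 over the 6 tumours were looked up among 13733 tested genes of mean log2 CPM of at least 1, by the root mean square difference of log2 CPM after each profile was centred on its mean. Among the 5 nearest were D130043K22Rik, Frmpd4, a scaffold protein of synapses, Lrp1b, a receptor of the LDL family, and Kcnq3, a potassium channel subunit of neurons, at distances of 0.14, 0.16, 0.18 and 0.18. Frmpd4 was at 29.7, 27.3 and 41.1 CPM in miR155KO_Nf1KO and at 7.48, 10.1 and 7.97 CPM in Nf1KO. Among the markers, the nearest were Snap25 at 0.24, Nefh, a neurofilament, at 0.25, Krt1, a keratin, at 0.27, Isl1, a transcription factor of sensory neurons, at 0.28 and Nefm, a neurofilament, at 0.29. Krt1 had only 27 reads in all and did not pass the filter on low counts, so its distance rests on few reads. Of the 10 myelinating Schwann cell markers, Drp2 was at 0.33 and the others at 0.52 to 0.89. The nearness is a description over 6 tumours that share the split into groups, and no test was made of it.

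The targets Id1 and Id3 and the inhibitor Smad6 are known to be induced when BMP Smads are active. Their group ranges overlapped, as did those of 10518 of the 15604 genes tested. Id3, an inhibitor of basic helix-loop-helix factors and the most abundant Id transcript here, was at 65.8, 47.5 and 31.0 CPM without miR-155 and at 36.5, 68.5 and 45.6 CPM with it. The ranges overlapped almost in full, and the tumour of the highest Smad9, MiRNC670, had the lowest Id3 of all 6. The means were 48.1 ± 17.4 and 50.2 ± 16.5 CPM, a log2 fold change of -0.06 (SE 0.33).

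Id1, its close relative, was at 1.74, 2.57 and 0.317 CPM in miR155KO_Nf1KO and at 1.38, 2.84 and 1.14 CPM in Nf1KO, from 151 reads in all. MiRNC670 was again the lowest, with 4 reads, and the other 5 tumours lay within 1.14 to 2.84 CPM. Its log2 fold change of -0.21 (SE 0.74) took either sign over the alternatives, from -0.78 to 0.75. For Id3 the alternatives ran from -0.34 to 0.43. Both genes turned positive without MiRNC670 (0.25 for Id1 and 0.15 for Id3), without Nf809 (0.32 and 0.24) and without both (0.75 and 0.43).

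Smad6 was the least abundant gene of the set, with 14, 29 and 7 reads in miR155KO_Nf1KO and 5, 13 and 12 in Nf1KO. Its level was 0.901, 1.96 and 0.554 CPM against 0.363, 0.804 and 0.803 CPM, with MiRNC670 inside the range of the other group. Its log2 fold change was 0.79 (SE 0.66). It ran from 0.15 without MiRNC640 to 1.251 without MiRNC670 and Nf809 over the 14 alternatives that kept it, and the ranges of the groups overlapped.

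The genes nearest in profile to Id1 were Xndc1, 2310022A10Rik, Gm15417, D030028A08Rik and Pmel, a protein of pigment granules, at distances of 0.31, 0.33, 0.33, 0.36 and 0.36 among 13734 genes. All 5 had their lowest level in MiRNC670, as Id1 did. Xndc1, for example, was at 26.6, 20.5 and 5.86 CPM without miR-155 and at 19.8, 33.9 and 17.1 CPM with it. The 5 were picked for nearness to Id1 over the same tumours, so nothing is read from the shared low. Within the set, Bmp7 and Smad5 were the most alike pair at 0.18, followed by Smad1 and Smad5 at 0.28 and Bmp4 and Id3 at 0.31. The 10 genes had a median log2 fold change of -0.04, beside 0.01 over all genes tested, with 4 positive and 6 negative.

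Ordered by mean level per length over the 6 tumours, Id3 and Bmp7 led at 27.4 CPM per kb each, with Id3 between 17.3 and 38.2 and Bmp7 between 21.97 and 33.4. Smad5 followed at 17.8, then Smad1 at 6.01, Bmp4 at 5.79 and Smad9 at 3.74 CPM per kb. Smad9 ran from 1.15 to 6.92 CPM per kb, the ends of its 2 groups, so its place in the order was that of Bmp4 or Smad1 in miR155KO_Nf1KO and nearer to Bmp6 in Nf1KO. The low end held Bmp6 at 1.72, Id1 at 1.43, Bmp2 at 0.823 and Smad6 at 0.280 CPM per kb. Of neighbours in this order, Bmp7 and Smad5, and Smad5 and Smad1, had ranges that were apart, and the other neighbours overlapped. Among the 4 ligands, Bmp7 made up 75.4 ± 5.45% of the summed CPM per kb in miR155KO_Nf1KO and 76.9 ± 6.07% in Nf1KO, and Bmp4 17.5 ± 4.64% and 15.8 ± 5.24%.

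The rest of the pathway was read from 56 further genes listed by role, of which 42 were tested. Of these, 2 were called higher and 3 lower (11.9% in all, beside 9.96% of all genes tested), a share near the background. In edgeR's test 11 of the 42 had an unadjusted p under 0.05, beside 4163 of all 15604 genes tested. The median log2 fold change of the 42 was -0.12, with 20 positive and 22 negative. Group ranges were apart for 14 of 42, 4 higher and 10 lower, beside 16.3% in each direction over all genes.

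Id4 had the largest log2 fold change, in either direction, of the 42 tested pathway genes. It belongs to the Id family but is also expressed in neural lineages, and it was at 9.66, 9.19 and 8.0 CPM in miR155KO_Nf1KO and at 3.56, 2.16 and 1.94 CPM in Nf1KO. All 3 tumours without miR-155 were above all 3 with it. The means were 8.95 ± 0.854 and 2.55 ± 0.875 CPM, a log2 fold change of 1.81 (SE 0.32), and edgeR's Benjamini-Hochberg adjusted p was 0.0254. The call was lost without MiRNC640, MiRNC670, Nf803 or Nf827 and without MiRNC670 and Nf809 together (edgeR, Benjamini-Hochberg adjusted p from 0.0679 to 0.0937). Exons of Id4 (chr13:48261228-48266026, plus strand) overlap the antisense transcript A330033J07Rik and Gm49291, and the neuron and myelin sums given above were higher in the same 3 tumours, whose part was not tested.

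Id2, the remaining member of the family, was at 14.9, 13.8 and 7.13 CPM without miR-155 and at 37.7, 16.3 and 21.2 CPM with it. The groups were apart, with MiRNC149 and Nf809 close to each other. The log2 fold change was -1.06 (SE 0.39), and edgeR's Benjamini-Hochberg adjusted p was 0.133. Over the alternatives the adjusted p of Id2 ran from 0.0474 with DESeq2, the 1 setting that called it, to 0.354 without Nf803. Among the 4 Id genes, Id4 made up 7.01 ± 1.97% of the summed CPM per kb in miR155KO_Nf1KO and 1.67 ± 0.670% in Nf1KO. For Id2 the shares were 13.8 ± 1.42% and 26.3 ± 13.5%, and unlike its CPM their ranges overlapped, with Nf809 at 14.0% and MiRNC640 at 15.4%. Id3 was the main one in both groups at 75.7 ± 3.29% and 68.3 ± 13.3%.

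Runx2, a bone transcription factor counted among BMP targets, was lower without miR-155, at 89.2, 50.4 and 80.4 CPM against 152, 142 and 126 CPM. The ranges were apart. For Runx2 the log2 fold change was -0.93 (SE 0.22), and edgeR's Benjamini-Hochberg adjusted p was 0.0408. The call was lost with sex as a covariate and without MiRNC640, MiRNC670, Nf803, Nf827 or both MiRNC670 and Nf809 (edgeR, Benjamini-Hochberg adjusted p from 0.0666 to 0.119). Exons of Runx2 overlap the antisense Runx2os1. Of the 9 listed targets besides Id1 and Id3, 6 were tested, with 1 called higher and 1 lower (33.3%, beside 9.96% of all genes tested). Msx1 had no read in any tumour.

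Among receptors and co-receptors, 1 of 11 was called (9.09%, beside 9.96% of all genes tested), and it was lower. Acvr1, a type I receptor, was at 33.1, 31.4 and 43.8 CPM in miR155KO_Nf1KO and at 60.0, 55.1 and 60.9 CPM in Nf1KO, with no overlap. For Acvr1 the log2 fold change was -0.70 (SE 0.17), and edgeR's Benjamini-Hochberg adjusted p was 0.0437. The call was lost with sex as a covariate (edgeR, Benjamini-Hochberg adjusted p = 0.0779) and without any 1 tumour other than Nf809 (from 0.0855 to 0.128). The longest 3′ UTR of Acvr1 holds a 7mer-A1 match to the miR-155-5p seed at chr2:58447224-58447230, minus strand, in exon 10 of 10. Among tested genes with a UTR 0.8 to 1.25 times as long, 9.13% of 2168 held a 7mer or longer. The receptors Bmpr1a, Bmpr1b, Bmpr2 and Acvr2a, which were not called, each hold a 7mer match as well.

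Of the receptors, Bmpr2, Bmpr1a and Bmpr1b did not pass the test. Bmpr2, the main type II receptor, had means of 1206 ± 162 and 1098 ± 181 CPM and a log2 fold change of 0.14 (SE 0.16; edgeR, Benjamini-Hochberg adjusted p = 0.657). For Bmpr1a, a type I receptor, the means were 282 ± 12.7 and 306 ± 37.9 CPM (log2 fold change -0.12, SE 0.13; edgeR, Benjamini-Hochberg adjusted p = 0.607). Bmpr1b, its less widespread relative, was at 3.61, 3.78 and 7.45 CPM against 4.57, 3.71 and 3.15 CPM, with 1 tumour, MiRNC670, above the rest. Its log2 fold change was 0.37 (SE 0.39; edgeR, Benjamini-Hochberg adjusted p = 0.600), and it turned negative without MiRNC670 (-0.07) and without MiRNC670 and Nf809 together (-0.09).

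Outside the cell, the 2 called genes are metalloproteases of 1 family that cleave the BMP antagonist chordin, and they differed in opposite directions. Bmp1, which despite its name is a procollagen C-proteinase and not a ligand, was at 59.0, 39.7 and 44.5 CPM without miR-155 and at 99.6, 108 and 100.1 CPM with it. The log2 fold change was -1.10 (SE 0.17), and edgeR's Benjamini-Hochberg adjusted p was 0.0212. The call was lost without MiRNC640, MiRNC670, Nf803, Nf827 or both MiRNC670 and Nf809 (edgeR, Benjamini-Hochberg adjusted p from 0.0534 to 0.0855). Tll1, the related tolloid-like protease, was at 11.01, 22.7 and 21.5 CPM against 8.13, 5.32 and 6.36 CPM. Its log2 fold change was 1.48 (SE 0.33), and edgeR's Benjamini-Hochberg adjusted p was 0.0368. The call for Tll1 was lost in 8 of 15 alternatives, namely limma voom (adjusted p 0.0573), sex as a covariate (0.0964) and each tumour left out but MiRNC149, or MiRNC670 and Nf809 together (0.0562 to 0.172). The groups were apart for both proteases.

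Markers of fibroblasts, the cells that make most of the collagen Bmp1 acts on, summed to 3835 to 5320 CPM without miR-155 and 8423 to 9241 CPM with it, with 2 of 6 called lower and none at 0. Pdgfra was at 175, 112 and 119 CPM against 198, 300 and 128 CPM. Perineurial markers, led by Cldn1 at 305, 128 and 279 CPM against 728, 1091 and 497 CPM, summed to 382 to 661 CPM and 798 to 1524 CPM, with 1 of 3 called lower. Of the 3, only Cldn1 had ranges that were apart. Slc2a1 was at 165, 101 and 135 CPM against 157, 134 and 113 CPM, and Itgb4 at 191, 153 and 180 CPM against 211, 299 and 189 CPM. The part of these cells, and of the macrophages above, in the lower Bmp1, Acvr1 and Runx2 was not tested.

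Of 19 extracellular regulators, 15 were tested, with 1 called higher and 1 lower (13.3%, beside 9.96% of all genes tested). Their median log2 fold change was -0.15. Nog, which encodes the classic BMP antagonist noggin, was too low to test, with 4, 1 and 9 reads in miR155KO_Nf1KO and 8, 2 and 1 in Nf1KO. Of the 10 ligands outside the set, 3 were tested and 0 were called by edgeR (beside 9.96% of all genes tested), with 1 at an unadjusted p under 0.05. Bmp10 and Gdf2, ligands made in heart and liver, had 0 reads in all 6 tumours, which allows a level of up to 0.184 to 0.230 CPM (3 reads, counting error only).

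Inside the cell, 0 of 7 regulators were called by edgeR (beside 9.96% of all genes tested), with 1 at an unadjusted p under 0.05. Group ranges of the 7 were apart for 1 higher and 3 lower, beside 16.3% in each direction over all genes tested. Smad4, the partner of all receptor-regulated Smads, had means of 78.9 ± 4.78 and 86.4 ± 7.88 CPM and a log2 fold change of -0.13 (SE 0.12; edgeR, Benjamini-Hochberg adjusted p = 0.561). Smad7, the second inhibitory Smad, was at 5.47, 4.80 and 4.67 CPM against 7.40, 6.37 and 8.03 CPM. Its ranges were apart, and the log2 fold change was -0.54 (SE 0.25; edgeR, Benjamini-Hochberg adjusted p = 0.212).

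**Figure D5:**
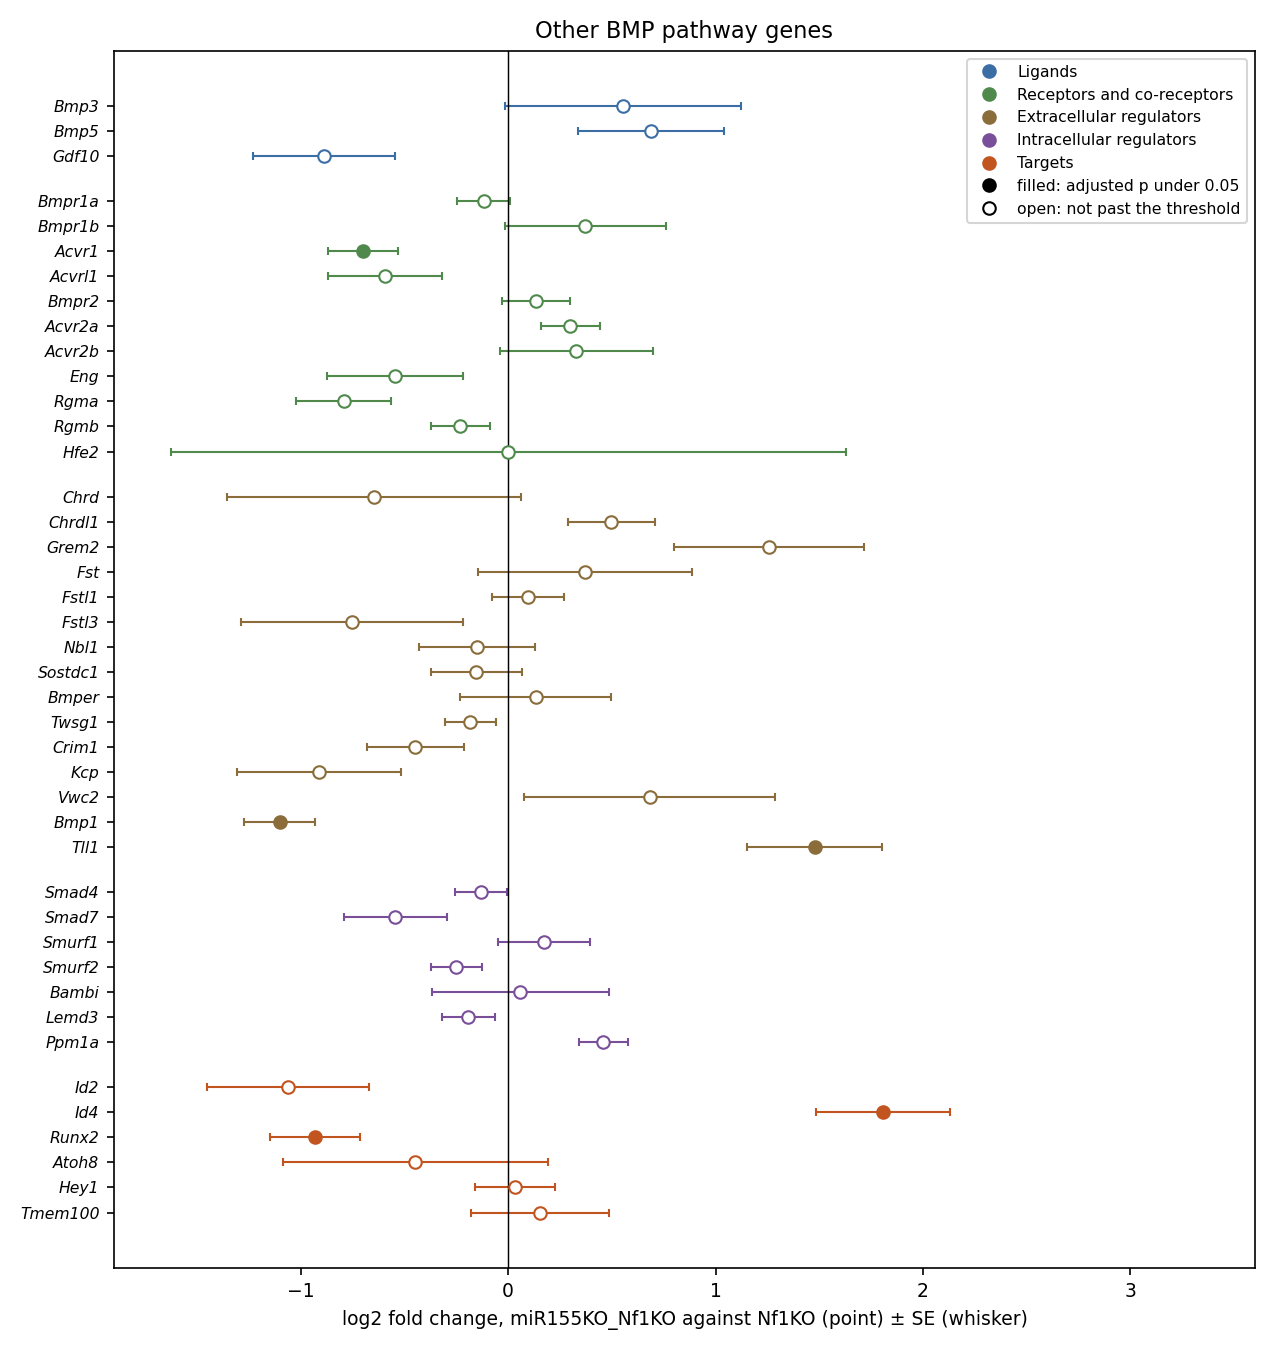
Log2 fold change (x axis, points) with its SE (whiskers) for the 42 tested pathway genes outside the set of 10, coloured by role. Filled points passed an adjusted p under 0.05: Id4 at 1.81 and Tll1 at 1.48 on the right, and Acvr1, Runx2 and Bmp1 between -0.70 and -1.10 on the left.

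A 7mer or longer for the miR-155-5p seed was present in 12 of these 42 genes (28.6%), beside 14.2% of all tested genes with a 3′ UTR. The median 3′ UTR of the 42 was 1862 bases against 1214 bases over all tested genes. Of the 12, 3 held an 8mer, the strongest class, and they are shown with the match in capitals.
Gdf10: gtccctaccctgggctAGCATTAAaatg
Ppm1a: ctccagatactccaagAGCATTAAaaat
Tmem100: agtgtgggagatgcacAGCATTAAataa
They lie at chr14:33935352-33935359, chr12:72798856-72798863 and chr11:90036042-90036049 on the plus strand, each in the last exon. Gdf10, a divergent ligand, had means of 3.08 ± 1.01 and 5.70 ± 0.397 CPM and a log2 fold change of -0.89 (SE 0.34; edgeR, Benjamini-Hochberg adjusted p = 0.149). Ppm1a, a phosphatase that acts on receptor-regulated Smads, was at 72.2 ± 1.81 CPM without miR-155 and 52.6 ± 2.90 CPM with it (log2 fold change 0.46, SE 0.12; edgeR, Benjamini-Hochberg adjusted p = 0.0531). Tmem100, a membrane protein induced by BMP in endothelium, was at 8.63 ± 0.322 and 7.75 ± 3.40 CPM (log2 fold change 0.15, SE 0.33; edgeR, Benjamini-Hochberg adjusted p = 0.815). None of the 3 passed the threshold. Another 8mer was found in Gdf6, which had 13 reads in all and was not tested.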

How the data were processed

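Bulk RNA from 6 neurofibromas (RNeasy Plus Micro extraction) was made into Nextera XT libraries, per the labels' protocols. The deposited counts are whole reads by gene symbol and tumour, unscaled, made with HISAT2 2.0.5, featureCounts 1.5.2 and mm10 per the submitters' processing notes. The sources used here do not give the annotation, the strand setting or how multiply matching reads were treated. Genes were kept by edgeR's filterByExpr (minimum count 10, total 15), scaled by TMM and tested by the quasi-likelihood test of edgeR 4.0.16 (limma 3.58.1, R 4.3.3), two-sided, with Benjamini-Hochberg adjustment over 15604 genes and a threshold of 0.05. The SE is the log2 fold change divided by the square root of F. Counts of replicate samples differed by at least 23.2 times the variance of Poisson sampling, so no pair was 1 library counted again. This does not tell separate tumours from pieces of the same one. CPM per kb used the summed exon length of GENCODE M21 (GRCm38), to which 10 of 10 genes and 56 of 56 pathway genes matched, and 23384 of 24421 symbols. Alternatives used other scalings and filters, DESeq2 1.42.0, limma voom, sex read from Xist and Y-linked reads as a covariate, and left out tumours. The fit was tested on simulated data.

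The 10 genes and all lists were chosen with earlier results of these data known. Named besides the 10 were Bmpr1a, Bmpr1b, Bmpr2, Acvr1, Nog, Smad4, Smad7, Id2, listed genes past the threshold, those with an 8mer, the 5 genes nearest in profile to Smad9 and Id1, the first gene of each marker list, and Mir155hg. Of the genes this rule names, 2 are not reported here. Marker lists also covered skeletal muscle, adipocytes and keratinocytes. Adipoq, first of the adipocyte list, was at 10.8 to 201 CPM without miR-155 and 2.60 to 28.5 CPM with it. Keratinocyte markers summed to 6.16 to 9.25 CPM over all tumours, with Krt5 at 0 in all. In the muscle list 0 of 6 were called, with Acta1 from 0 to 193 CPM.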

Additional observations from a re-analysis of the deposited data

How the results depend on the processing

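No paired analysis was possible because the tumour numbers differ between the groups. Of 15604 genes, 815 were higher and 739 lower. DESeq2 gave 1477 and 1441, an adjusted p under 0.1 gave 1383 and 1319, and sex as a covariate gave 534 higher. Leaving out 1 tumour gave 0 to 1183 higher and 0 to 1059 lower: edgeR called 0 without MiRNC670, Nf803 or Nf827, with 3240, 3335 and 3265 genes at an unadjusted p under 0.05, and 99 and 43 without MiRNC640. Of the 42 tested pathway genes, 2 were higher and 3 lower. DESeq2 gave 6 lower, limma voom 1 higher, sex as a covariate 1 higher and 1 lower, and leaving out MiRNC670 and Nf809 0 higher and 1 lower. Leaving out 1 tumour gave 0 to 2 higher and 0 to 3 lower, and both counts were 0 without MiRNC640, MiRNC670, Nf803 or Nf827, with 10, 8, 9 and 10 genes at an unadjusted p under 0.05. The cause was not tested. With 8mers alone the shares with a match were 0% of the 10 genes and 7.14% of the pathway genes, beside 3.48% of all tested genes. With 6mers or longer they were 30.0% and 40.5%, beside 21.9%. No result changed sign past a threshold. The fewest reads were behind Smad6, Id1 and Bmp2, with 80, 151 and 255 in all.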

Other observations

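Hfe2, which encodes hemojuvelin, a BMP co-receptor made in muscle and liver, was chosen after its values were seen. It was at 1.42, 3.38 and 11.9 CPM in MiRNC149, MiRNC640 and MiRNC670 and at 0.218, 16.3 and 0 CPM in Nf803, Nf809 and Nf827. Ckm, the creatine kinase of muscle, was at 12.5, 19.0 and 134 CPM and at 3.70, 151 and 0.469 CPM in the same order. Both genes were highest in Nf809 and MiRNC670 and lowest in Nf827. The log2 fold change of Hfe2 between the groups was 0.00 (SE 1.63).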
